A study of Mus musculus with 12 samples.

Results

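Genes of the motile cilium and of the ciliated ependyma were followed across 12 mouse brain arrays. The members were every gene whose symbol starts with Dnah, Dnai, Dnaaf, Cfap, Rsph, or Tekt, together with Foxj1, Dynlrb2, Ccdc39, Ccdc40, Spag6, Hydin, and 1110017D15Rik. The mouse gene table held 77 such genes, and 64 of them had a probe that could be named through its accession. A probe well above its background on at least 1 array was required, which left 62 members of the 17952 genes that passed the same filter. The 2 members that never rose above background were Dnaaf6 and Tekt3, and 40 of the 62 were well above background on all 12 arrays. The 13 members with no named probe, Ccdc40 among them, were not analysed here.

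The study used models of Alzheimer's disease, and each of its 12 one-colour Agilent arrays carried RNA pooled from 3 animals of 1 model. The prefrontal cortex of C57BL/6 mice was taken at 1.5, 4, 17, and 22 months of age. The hippocampus of C57BL/6 mice was taken from 3 transgenic models. The first carried mutated human NCSTN (10 months), the second overexpressed wild-type human MAPT (12 months), and the third was 5xFAD (6 months), a line that makes mutated human amyloid precursor protein and presenilin 1 in neurons. The promoters of the NCSTN and MAPT transgenes are not given in the sources used here. The hippocampus of male ICR mice aged 7 weeks was taken 14 days after Aβ (at 5 μM on 1 array and 10 μM on another) or streptozotocin (2.5 mg/kg on 1 array and 3 mg/kg on another) had been injected into the lateral ventricle of the brain, or 30 minutes after scopolamine (1 mg/kg) was given into the abdomen. No array of untreated ICR mice or of nontransgenic hippocampus was analysed here. The only references were therefore the remaining arrays of the same set (4 cortex, 3 transgenic, 5 ICR).

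There was 1 array per model, so no value has an error from replicates and no test between models was possible. All levels are normalized log2 signals, a log2 ratio is the level on an array minus the mean of the other arrays of its set, and a difference of 1 is a 2-fold change. Levels of different genes were not compared, because probes differ in brightness. By construction, a gene that is low on 1 array of a set gains positive ratios on the rest, because its ratios add up to 0. Between 64.3% and 76.4% of the spots of an array were well above background. Xist, the RNA of the inactive X chromosome, was well above background on the 3 transgenic arrays (9.19 on NCSTN, 9.44 on MAPT, and 9.59 on 5xFAD) and on none of the other 9, although the methods describe the animals of all 3 models as male. Results on the transgenic arrays therefore carry that doubt about the sex of the animals.

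A motile cilium is built around an axoneme, a ring of microtubule doublets with a central pair. Dynein arms on the doublets, made of heavy, intermediate, and light chains and assembled in the cytoplasm by dedicated factors, slide the doublets, and radial spokes and the central pair coordinate the beat. In the brain, motile cilia stand on the ependymal cells that line the ventricles and move the cerebrospinal fluid, and the epithelium of the choroid plexus is also ciliated. Foxj1 is the forkhead transcription factor that switches on the genes of motile cilia, and RFX factors act with it through the X-box, a motif with an inverted repeat.

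Promoters are shown for the 5 members with the X-box core GTTGCC whose mean signal was lowest on the streptozotocin arrays described below relative to the other ICR arrays, because they let the motif be seen beside the values. Cfap44 among them was not well above background on either streptozotocin array, where it was at least 1.07-fold lower. Of the members at least 2-fold lower, Dnaic2 also held the core and is not shown because its difference was the smallest. Each sequence is upstream of the start site (RefSeq, GRCm38.p6), and the capitals mark GTTGCC or its reverse complement GGCAAC.
Dynlrb2, chr8:116504895-116505014, plus strand: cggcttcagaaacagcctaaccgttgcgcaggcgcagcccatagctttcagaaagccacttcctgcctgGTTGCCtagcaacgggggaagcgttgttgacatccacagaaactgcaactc
Tekt1, chr11:72361883-72362002, minus strand: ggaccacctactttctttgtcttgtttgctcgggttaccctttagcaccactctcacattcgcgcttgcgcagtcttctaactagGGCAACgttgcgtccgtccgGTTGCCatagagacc
1110017D15Rik, chr4:41507765-41507884, minus strand: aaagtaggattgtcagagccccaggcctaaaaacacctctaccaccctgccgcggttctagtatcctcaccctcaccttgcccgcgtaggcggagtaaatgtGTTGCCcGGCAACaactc
Cfap161, chr7:83794840-83794959, minus strand: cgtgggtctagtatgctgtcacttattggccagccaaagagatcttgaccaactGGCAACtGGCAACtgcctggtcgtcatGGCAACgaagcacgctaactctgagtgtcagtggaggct
Cfap44, chr16:44394668-44394787, plus strand: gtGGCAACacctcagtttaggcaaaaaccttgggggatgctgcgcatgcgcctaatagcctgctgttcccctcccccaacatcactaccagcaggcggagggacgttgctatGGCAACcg

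The core was searched on both strands of the 250 bases before each start site. It was present in 25 of 73 promoters of the members (34.2%) and in 3425 of 32851 promoters of all genes (10.4%). The whole X-box was searched with a fixed spacing (GTNNCC, then any 3 bases, then GNAAC), and it can overlap the core. That pattern was present in 11 of the 73 (15.1%) and in 590 of all promoters (1.8%), and 6 promoters of members held both. Inverted repeats with another spacing, such as those in the Dynlrb2 and 1110017D15Rik sequences above, were not counted as whole X-boxes. A promoter was listed for 65 of the 77 members, and a match describes letters in a window, not a bound site. The core did not separate the members by their streptozotocin values, since the median difference defined below was -0.433 for the 19 members with it and -0.459 for the 33 without it. For the whole X-box at the searched spacing, the median difference was -0.239 for the 10 members with it. For the 42 without that pattern, which may hold an X-box of another spacing, it was -0.522.

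The members differed first between the hippocampus and the cortex arrays. Over the 62 members, the hippocampus arrays exceeded the cortex arrays by a median of 0.84, whereas the median over all genes was 0.00. For 24 members every hippocampus array lay above every cortex array, against 8.75% of all genes, and for 1 member, Cfap20dc, every hippocampus array lay below, against 10.1%. The 5 ICR arrays alone gave a median of 0.90, with 27 members above every cortex array (19.3% of all genes). The 3 transgenic arrays alone gave 0.92, with 34 members above every cortex array (14.2% of all genes). The transgenic and cortex arrays share the labelled strain and differ in age and in the sex that Xist and the Y-linked genes show. The ICR and cortex arrays share that sex and differ in strain. In addition, every hippocampus array came from transgenic, injected, or drug-treated mice, whereas the cortex mice are labelled by age only. Region and age cannot be told apart from these differences in either contrast, and in bulk tissue fewer cells of a type and less RNA per cell cannot be told apart either.

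Among the 40 members well above background on all 12 arrays, Dnah6 and Dnah2, both heavy chains of the inner arms, had the largest regional differences, at 4.11 and 2.81. Dnah6 read 5.02, 4.50, 5.52, and 5.58 on the cortex arrays from the youngest to the oldest, 8.39 on NCSTN, 8.53 on MAPT, and 10.07 on 5xFAD. On the ICR arrays it read 9.71 with 5 μM and 9.71 with 10 μM Aβ, 8.85 with 2.5 mg/kg and 8.64 with 3 mg/kg streptozotocin, and 10.17 with scopolamine. The levels in the 2 regions did not overlap. Spag6, a protein of the central pair, went the other way in its mean (-1.42), although the ranges of the 2 regions overlapped.

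**Figure D1:**
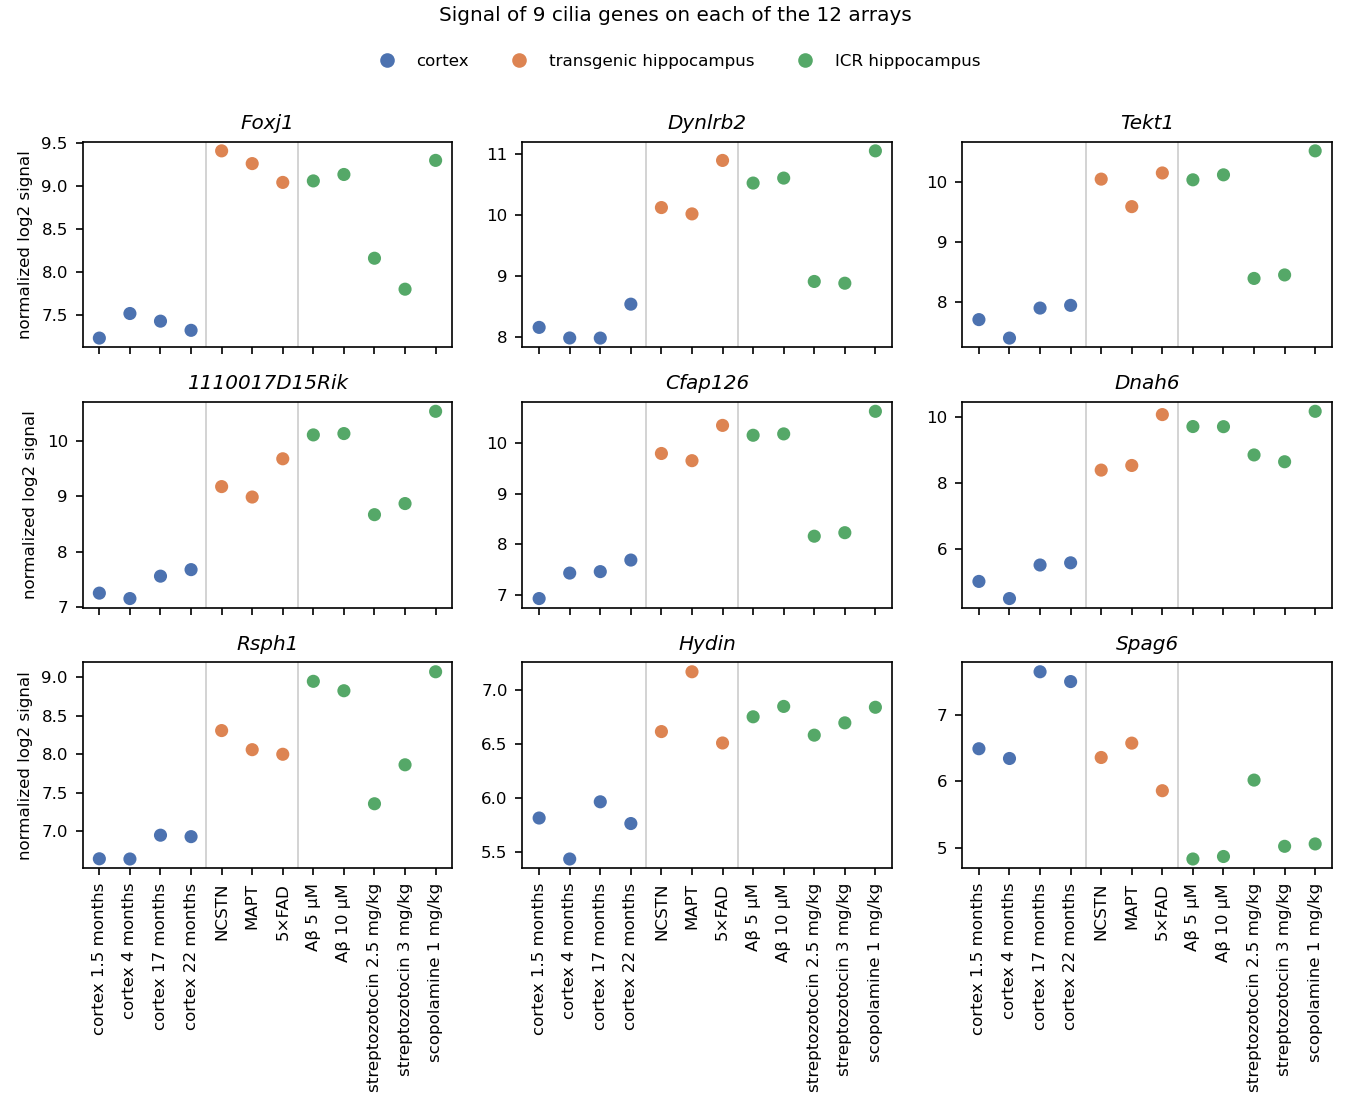
Normalized log2 signal (y axis) of 9 cilia genes on each of the 12 arrays (x axis), coloured by set, with 1 point per array and no error because each model has 1 array. For Foxj1, Dynlrb2, Tekt1, 1110017D15Rik, Cfap126, and Rsph1 both streptozotocin arrays lie below the other 3 ICR arrays, whereas Spag6 is highest on the 17-month and 22-month cortex arrays.

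Within the ICR hippocampus, the members were lower on both streptozotocin arrays. The median log2 ratio of the 62 members was -0.35 with 2.5 mg/kg and -0.43 with 3 mg/kg, where the median over all genes was 0.00 and 0.02. With 2.5 mg/kg, 16 members were at least 2-fold lower (5.56% of all genes) and 1 was at least 2-fold higher (2.46% of all genes). With 3 mg/kg, 16 members were at least 2-fold lower (3.34% of all genes) and 0 were at least 2-fold higher (2.06% of all genes). The median of 3 mg/kg minus 2.5 mg/kg over the members was -0.01, with 2 members at least 2-fold higher (4.21% of all genes) and 1 at least 2-fold lower (2.72% of all genes).

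The 2 streptozotocin arrays were then set against the 2 Aβ arrays, which share the route and the day. The median difference was -0.44, with 19 members at least 2-fold lower (5.72% of all genes) and 0 at least 2-fold higher (2.11% of all genes). Both streptozotocin arrays lay below both Aβ arrays for 39 members (20.7% of all genes) and above them for 7 (28.9% of all genes). With the scopolamine array added to the second side, a contrast chosen after the values were seen, the median was -0.55, with quartiles of -1.32 and -0.09. In that contrast 24 members were at least 2-fold lower (4.9% of all genes) and 0 were at least 2-fold higher (1.88% of all genes). Without overlap, 38 lay below (15.4% of all genes) and 3 above (22.1% of all genes).

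The filter keeps genes that are bright on any array, so the same contrast was also read on all 64 members with a probe, of which 23 were at least 2-fold lower (4.22% of all genes) with a median of -0.46. Of the 24 lower members, 17 were well above background on all 5 ICR arrays and 6 were on neither streptozotocin array. With dim values raised to the lowest signal well above background on their array, 21 members were at least 2-fold lower and the median was -0.42. Another background correction (normexp) gave 10 members and a median of -0.28. The values of the deposited matrix gave 11 members and a median of -0.09, on a scale where the median over all genes was 0.24.

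Foxj1 was among the lower genes. It read 9.06 and 9.13 on the 5 and 10 μM Aβ arrays and 9.30 on the scopolamine array, and 8.16 and 7.80 on the 2.5 and 3 mg/kg streptozotocin arrays. The 2 sides did not overlap, and the streptozotocin arrays were 2.28-fold lower. The upstream regulators of multiciliated cells were mixed. Over 14 such genes the median difference was 0.01, with 0 at least 2-fold lower (4.9% of all genes). Without overlap, 4 lay below (15.4% of all genes) and 3 above (22.1% of all genes). The 1 that was at least 2-fold higher, Plk4, was not well above background on any ICR array, so its difference was not measured. Gmnc, which acts early in the formation of multiciliated cells, and Myb, a transcription factor of the same cells, differed by -0.55 and -0.58. Both lay below without overlap.

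Dynein chains followed. Dynlrb2, a light chain of the roadblock type, read 10.53 and 10.61 with Aβ, 11.06 with scopolamine, and 8.92 and 8.89 with streptozotocin, which is 3.56-fold lower with streptozotocin and without overlap. Of the 10 dynein heavy chains, 3 were at least 2-fold lower (4.9% of all genes) and 7 lay below without overlap (15.4% of all genes). Dnah11, an outer arm heavy chain, had the largest difference among them, 5.86-fold lower, with 7.26 and 7.24 on the Aβ arrays, 7.60 on the scopolamine array, and 4.89 and 4.74 on the streptozotocin arrays. Dnah2 and Dnah6, both of the inner arms, were 3.68-fold and 2.17-fold lower. Dnah5, an outer arm heavy chain, differed by only -0.21, and Dnah9 and Dnah17 were not well above background on any ICR array.

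Of the 2 intermediate chains of the outer arm, Dnaic2 was 2.02-fold lower without overlap and Dnaic1 differed by 0.03. Of the 6 assembly factors, 1 was at least 2-fold lower (4.9% of all genes). Without overlap, 2 lay below (15.4% of all genes) and 1 above (22.1% of all genes). The 1 above, Dnaaf1, was not well above background on any ICR array. The 2-fold lower factor was Dnaaf3, at 8.64, 8.93, and 9.11 on the Aβ and scopolamine arrays and 7.11 and 7.09 on the streptozotocin arrays, or 3.46-fold lower. Dnaaf2, Dnaaf4, and Dnaaf5 differed by between -0.15 and 0.09.

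Among the 7 radial spoke genes, 2 were at least 2-fold lower (4.9% of all genes) and 4 lay below without overlap (15.4% of all genes). Rsph1, a spoke head protein, was 2.52-fold lower, with 8.95, 8.82, and 9.07 on the other arrays against 7.36 and 7.86 on the streptozotocin arrays. Rsph4a and Rsph9, also of the spoke head, were 1.93-fold and 1.69-fold lower without overlap. Rsph6a was well above background on the scopolamine array only (5.99), with 3.42, 3.85, 3.45, and 2.98 on the other 4, so its difference rests on that array. Rsph3a and Rsph3b were higher by 0.43 and 0.53 with overlapping sides.

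Tekt1, a tektin of the filaments in the doublet wall, read 10.04, 10.12, and 10.52 on the Aβ and scopolamine arrays and 8.39 and 8.45 on the streptozotocin arrays, which is a difference of -1.81. The other 2 tektins differed by less, Tekt2 by -0.59 and Tekt4 by -0.49. The gene 1110017D15Rik, which the rule lists by name, read 10.11, 10.14, and 10.54 against 8.67 and 8.87, or 2.82-fold lower. All of these sides were separate except those of Tekt4.

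The Cfap genes, named for proteins associated with cilia and flagella, were the largest family and the most mixed. Of 28 members, 13 were at least 2-fold lower (4.9% of all genes). Without overlap, 18 lay below (15.4% of all genes) and 2 above (22.1% of all genes). Cfap126, which takes part in the placement of basal bodies, was 4.34-fold lower, with 10.15, 10.17, and 10.62 on the other arrays against 8.16 and 8.23. Cfap52, a protein inside the doublet microtubules, read 9.06, 8.97, and 9.49 against 6.44 with 2.5 mg/kg and 7.70 with 3 mg/kg, so the 2 doses stood apart, and the mean was 4.29-fold lower. Cfap70, which is associated with the outer arms, read 6.92, 6.84, and 7.25 against 4.39 and 5.58, of which only the second was well above background. Cfap43 and Cfap65 were 3.16-fold and 4.07-fold lower without overlap.

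Some Cfap genes fell out of range on the streptozotocin arrays. Cfap206, a protein of the radial spoke base, read 6.28, 5.80, and 5.54 on the other 3 arrays and was not well above background on either streptozotocin array (2.21 and 3.20), so it was at least 2.47-fold lower. Cfap157 read 7.54 with 5 μM Aβ, 5.54 with 10 μM Aβ, and 4.84 with scopolamine, and was not well above background with streptozotocin (1.80 and 1.77), so it was at least 2.64-fold lower. Cfap53 was at least 2.41-fold lower on the same basis. Cfap44 was at least 1.07-fold lower. Cfap97d1 was well above background on 1 of the 5 ICR arrays only, the 5 μM Aβ array. Cfap157 also differed between the 2 Aβ arrays, where 3 members in all were at least 2-fold lower with 10 μM than with 5 μM (3.53% of all genes) and 0 were at least 2-fold higher (2.79% of all genes).

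Other members changed little on the streptozotocin arrays. Hydin, a large protein of the central pair, read 6.75, 6.85, and 6.84 against 6.58 and 6.70, a difference of -0.18. Ccdc39, which sets the spacing of dynein arms and spokes along the doublet, read 7.04, 7.09, and 7.09 against 7.12 and 6.71, a difference of -0.16 with overlapping sides. Spag6 read 4.83, 4.87, and 5.06 against 6.02 with 2.5 mg/kg and 5.02 with 3 mg/kg, so only the lower dose stood above the rest. Cfap20, Cfap298, and Cfap410 differed by between -0.30 and -0.04. The highest difference among the members was that of Cfap221, at 0.80, without overlap.

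**Figure D2:**
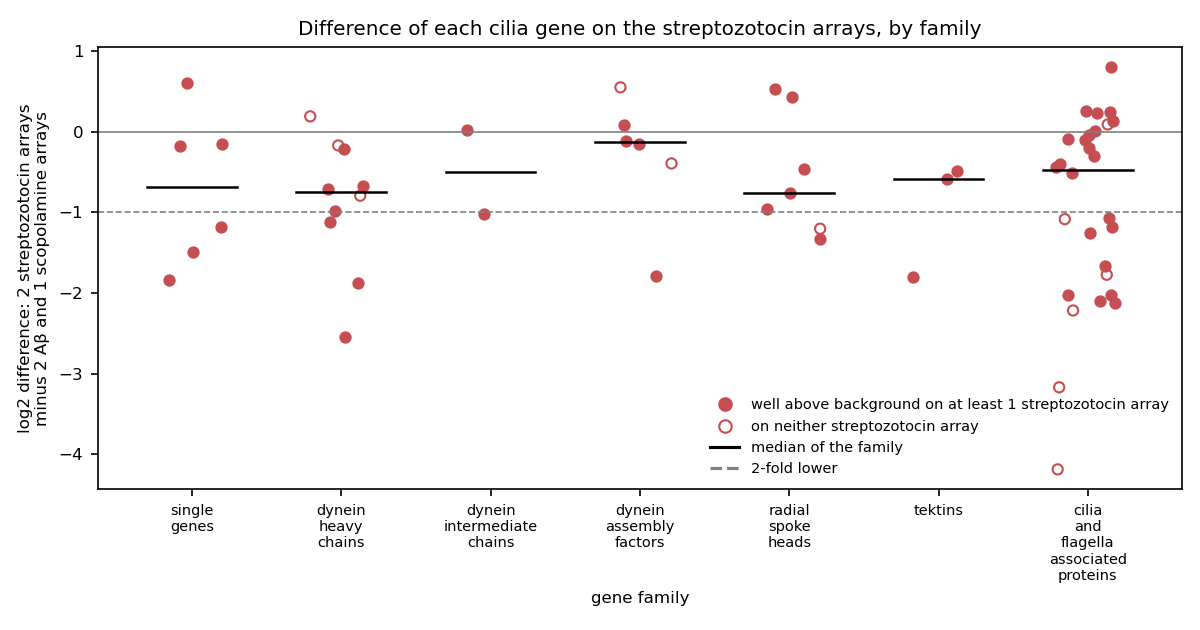
Log2 difference (y axis) of each of the 62 cilia genes between the 2 streptozotocin arrays and the other 3 ICR arrays, by gene family (x axis), where open circles mark genes well above background on neither streptozotocin array. Differences of the Cfap family run from -4.19 to 0.80, and no gene of any family is 2-fold higher.

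For 15 members with several probes in use, all probes had the same sign in this contrast for 13 and opposite signs for 2. Of the 24 members at least 2-fold lower, 13 were still higher on both streptozotocin arrays than on every cortex array. The share of all genes was not computed for this comparison, so the count has no background to be read against. The streptozotocin and cortex arrays also differ in strain and age.

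Other gene lists were read in the same contrast for comparison. Of 43 further genes of the axoneme and motile cilium that the rule does not include, 14 were at least 2-fold lower (4.9% of all genes). In that list 0 were at least 2-fold higher (1.88% of all genes) and 33 lay below without overlap (15.4% of all genes). Its median was -0.58. Drc7, a subunit of the nexin-dynein regulatory complex, read 6.15 and 6.53 with Aβ, 6.69 with scopolamine, and 3.18 and 2.11, not well above background, with streptozotocin. Of 36 genes of intraflagellar transport and the primary cilium, which nonmotile cilia share, 0 were at least 2-fold changed, and the median was -0.03. Without overlap, 9 lay below (15.4% of all genes) and 7 above (22.1% of all genes).

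Markers of the ependyma outside the rule moved with the members. Their median was -0.89 over 15 genes, of which 6 were at least 2-fold lower (4.9% of all genes). Without overlap, 11 lay below (15.4% of all genes). Mlf1, which is expressed in ciliated cells, read 8.11 and 8.36 with Aβ, 8.60 with scopolamine, and 6.12 and 6.43 with streptozotocin. Pifo was the exception with a positive difference, at 0.34. As a check of the tissue, 12 to 15 of the 15 markers were well above background on each hippocampus array and 9 to 12 on each cortex array.

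Markers of the choroid plexus moved further than the members. All 16 were at least 2-fold lower (4.9% of all genes) and lay below without overlap (15.4% of all genes), with a median of -4.73. Their summed linear signal was 16961 and 22250 on the streptozotocin arrays against 328989 to 357097 on the other 3. Of the 16, 12 and 13 were still well above background on the 2 streptozotocin arrays, and Ttr, the transthyretin of choroid plexus epithelium, read 11.27 and 12.06 there against 17.33 to 17.41. Meningeal fibroblast markers had a median of -1.64, and all 8 were at least 2-fold lower (4.9% of all genes), although 3 lay below without overlap (15.4% of all genes). Their summed signal was 5357 with 2.5 mg/kg and 18937 with 3 mg/kg, against 17478 to 49582 on the other arrays. The medians of neuron, astrocyte, oligodendrocyte, and microglia markers were 0.19, -0.02, -0.12, and 0.27. The part of the choroid plexus and the meninges in the values of the members was not tested.

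**Figure D3:**
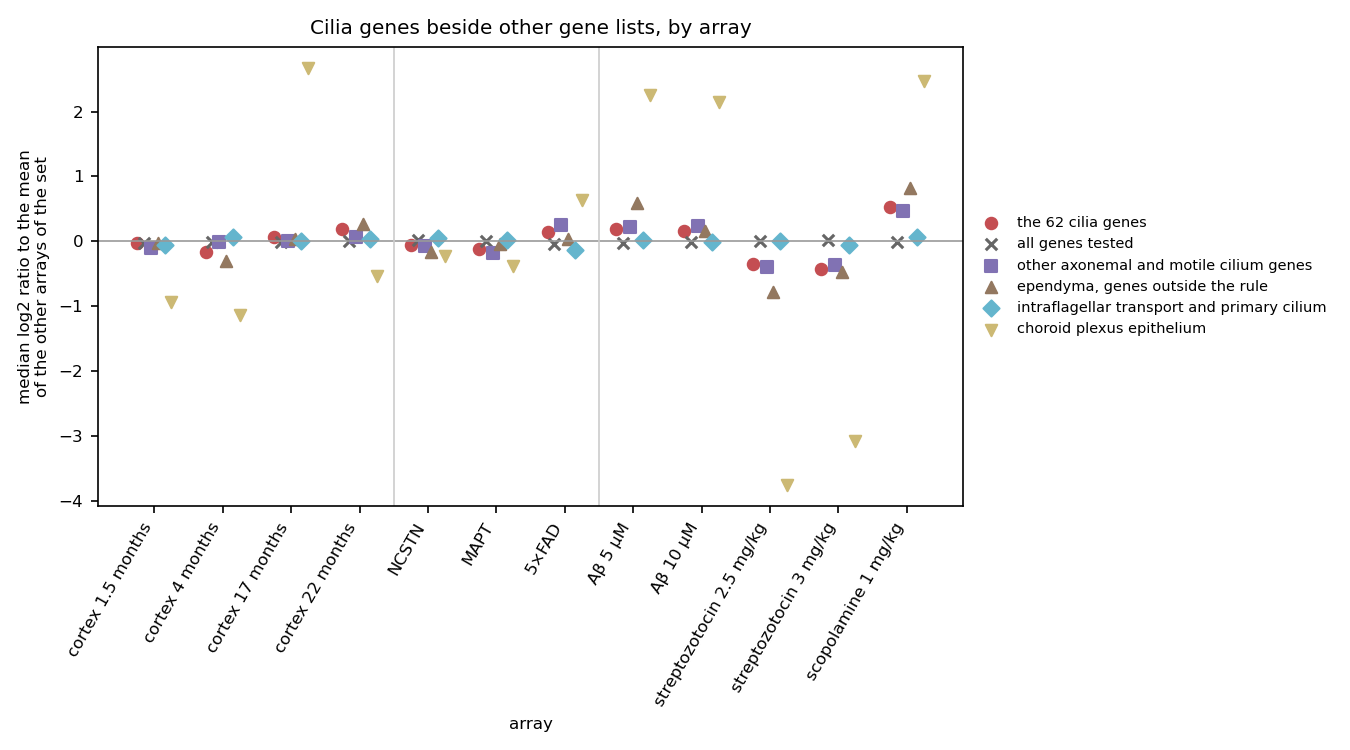
Median log2 ratio of each gene list (y axis), taken against the rest of the set, on each of the 12 arrays (x axis), with 1 marker per list. The 62 cilia genes and the other axonemal genes are lowest on the streptozotocin arrays and highest on the scopolamine array, choroid plexus markers swing from -3.75 to 2.67, and genes of intraflagellar transport and the primary cilium stay near 0.

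The scopolamine array was the highest of the ICR set. The median log2 ratio of the members was 0.53, where the median over all genes was -0.01, and 56 of the 62 members were above 0. At least 2-fold higher were 15 members (3.25% of all genes), and 0 were at least 2-fold lower (2.52% of all genes). These ratios contain the low streptozotocin arrays, and against the 5 and 10 μM Aβ arrays alone the median difference was 0.25 and 0.24, with 3 members at least 2-fold higher in each (2.55% and 3.26% of all genes) and 2 and 0 at least 2-fold lower (4.38% and 3.83% of all genes). The array was the highest of the 5 for 37 members (19.9% of all genes). Choroid plexus markers had a median ratio of 2.46 on it, and of 2.26 and 2.14 on the 5 and 10 μM Aβ arrays. Their summed linear signal was 328989 with scopolamine, against 333227 and 357097 with Aβ.

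Dnah8, an outer arm heavy chain known from sperm, had one of the highest ratios on the scopolamine array, at 2.56, with 7.38 there and 4.63 to 5.12 on the other 4 ICR arrays. It is the mean of 2 probes, 1 of which was well above background on the scopolamine array only. The other probe, well above background on all 12 arrays, read 8.12 there and 7.55 to 8.53 on the other 4. The ratio of Dnah8 therefore rests on the first probe. The Aβ arrays lay between, with median ratios of 0.18 and 0.16 and with 6 and 4 members at least 2-fold higher (4.27% and 3.76% of all genes) and 0 and 1 at least 2-fold lower (1.86% and 2.46% of all genes). Scopolamine differs from the other ICR models in route and time as well as in agent, which cannot be told apart.

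Among the transgenic models the members moved less. The median ratio was -0.06 on NCSTN, -0.12 on MAPT, and 0.14 on 5xFAD, where the median over all genes was 0.03, 0.00, and -0.05. On 5xFAD, 3 members were at least 2-fold higher (7.08% of all genes) and 2 were at least 2-fold lower (5.43% of all genes), so neither share exceeded that of all genes. On NCSTN, 2 were at least 2-fold higher (2.76% of all genes) and 0 lower (2.87% of all genes), and on MAPT 1 was at least 2-fold higher (2.3% of all genes) and 1 lower (3.44% of all genes).

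The 3 members at least 2-fold higher on 5xFAD, a smaller share than that of all genes, were Dnah6, Dnah2, and Cfap206. Dnah6 stood 1.61 above the mean of the other 2 arrays, with the levels given above. Dnah2 read 7.49 on NCSTN, 7.43 on MAPT, and 8.88 on 5xFAD. Cfap206 read 4.28, 4.34, and 5.94 in the same order. NCSTN and MAPT were close to each other for most genes. On MAPT, 2.11% of all genes were at least 2-fold higher than on NCSTN and 2.48% at least 2-fold lower.

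The 2 members lower on 5xFAD were Cfap20dc and Cfap61. Cfap20dc read 7.61 on NCSTN, 7.74 on MAPT, and 6.12 on 5xFAD. On the ICR arrays it read between 5.57 and 6.15, and on the cortex arrays between 8.13 and 8.30. Cfap61, which belongs to the calmodulin and spoke complex, was well above background on 1 array only, MAPT, at 3.92 against 3.03 and 2.23. Dnaaf6b read 6.42 on NCSTN, 3.46 on MAPT, and 4.22 on 5xFAD, the widest range of a member in this set. Microglia markers were high on 5xFAD (median ratio 1.65), and pituitary markers were high on MAPT (3.02), and their part in these values was not tested.

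Of the single genes, Foxj1 read 9.41, 9.26, and 9.04 on NCSTN, MAPT, and 5xFAD, a range of 0.37. Dynlrb2 read 10.13, 10.03, and 10.90, and 1110017D15Rik read 9.18, 8.99, and 9.68, both highest on 5xFAD. Hydin read 6.62, 7.17, and 6.51, and Spag6 read 6.35, 6.57, and 5.86, both highest on MAPT. Ccdc39 read 7.03, 7.18, and 7.31. The animals of the 3 models were of different ages, and age and model cannot be separated here.

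The 24 members that were at least 2-fold lower with streptozotocin can be read on the transgenic arrays, which did not enter that contrast. Their median ratio on 5xFAD was 0.58, with 20 of 24 above 0, and that of the other 38 members was -0.04, with 17 of 38 above 0, where 46% of all genes were above 0. Choroid plexus markers had a median ratio of 0.63 on 5xFAD, and their part in these values was not tested. The cortex arrays did not enter the streptozotocin contrast either. In the contrast of old and young cortex described below, the median difference of the 24 members was 0.33, with 16 of 24 above 0. That of the other 38 members was 0.08, with 23 of 38 above 0. The signs therefore separated the groups less in the cortex than on 5xFAD. This grouping of the members was made after the values were seen.

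In the cortex the members were slightly higher at the older ages. The median ratio was -0.03 at 1.5 months, -0.17 at 4 months, 0.07 at 17 months, and 0.19 at 22 months. At least 2-fold higher were 2 members at 1.5 months (2.14% of all genes), 1 at 4 months (2.09%), 2 at 17 months (2.46%), and 3 at 22 months (1.98%). At least 2-fold lower were 2 (2.87%), 4 (1.88%), 2 (2.32%), and 1 (2.06%) in the same order. The 17-month and 22-month arrays together exceeded the 1.5-month and 4-month arrays by a median of 0.12, with 4 members at least 2-fold higher (2.22% of all genes) and 1 at least 2-fold lower (1.94% of all genes). Both old arrays lay above both young arrays for 25 members (20.2% of all genes) and below them for 3 (15.6% of all genes). Cfap53, Cfap61, and Dnah11 among the 25, and Cfap157 and Dnaaf6b among the 3, were not well above background on any cortex array. Their order was therefore not measured, and these counts were not repeated with dim values raised.

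Some of the cortex signal was dim. Between 47 and 51 of the 64 members with a probe were well above background on a cortex array, against 59 to 60 on a transgenic array, 47 and 49 on the streptozotocin arrays, and 53 to 57 on the other ICR arrays. With dim values raised to the lowest signal well above background, the age median was 0.06, 1 member was at least 2-fold higher, and 0 were at least 2-fold lower.

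Spag6 was the member at least 2-fold higher with age that was well above background on all 4 cortex arrays. It read 6.49 at 1.5 months, 6.34 at 4 months, 7.64 at 17 months, and 7.50 at 22 months, so the old arrays lay above the young ones by a mean of 2.23-fold. Dnaaf1, an assembly factor, read 3.02 and 3.15 at 1.5 and 4 months, both below the limit for well above background, and 4.35 and 4.33 at 17 and 22 months, which gives at least 1.13-fold. Cfap65, a protein of the central pair, read 2.65, 3.40, 4.54, and 3.69, and was well above background at 17 months only. Dnah11, the remaining one of the 4, was not well above background at any age.

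Rsph14 read 3.48, 3.81, 4.24, and 4.87 from the youngest to the oldest array, and was well above background at 22 months only. Cfap73, a component that modifies the inner arms, read 3.91, 4.50, 4.86, and 5.33, and was well above background on 3 of the 4 arrays. Dnah9, an outer arm heavy chain, had the widest range of a member in the cortex (2.91), but without an order by age, at 3.94, 2.14, 1.66, and 4.57, of which 1 was well above background.

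The other single genes changed little in the cortex. Foxj1 read 7.23, 7.51, 7.42, and 7.32 from the youngest to the oldest array, a difference of 0.00 between old and young. Dynlrb2 read 8.16, 7.99, 7.99, and 8.54, and the old and young arrays overlapped. 1110017D15Rik read 7.25, 7.15, 7.55, and 7.67, and the old arrays lay above the young ones by 0.42. Hydin read 5.81, 5.43, 5.96, and 5.76, and Ccdc39 read 6.79, 6.57, 6.70, and 6.53, both with overlap.

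Markers of other cells also differed among the cortex arrays. Choroid plexus markers had a median ratio of 2.67 on the 17-month array, with 13 of 16 at least 2-fold higher, and a summed linear signal of 84061 against 21052 to 25415 on the other 3. The members had a median of 0.07 on that array, with 2 of 62 at least 2-fold higher (2.46% of all genes). The part of the choroid plexus in their values at 17 months was not tested. Ependyma markers outside the rule had median ratios of 0.03 at 17 months and 0.26 at 22 months, and Tmem212 and Ccdc153, both genes of ciliated cells, were highest at 22 months (5.93 and 7.87), where the other 3 ages read at most 1.86 and 5.33. In old against young cortex, 4 of the 15 were at least 2-fold higher (2.22% of all genes) and 1, Ak7, was at least 2-fold lower (1.94% of all genes). Ak7 was well above background at 1.5 months only. Of the 4, Tmem212 (1.83 and 1.81), 1700012B09Rik (1.88 and 2.02), and Stoml3 (1.92 and 1.76) were dim at 1.5 and 4 months. These values lie below the lowest signal well above background on those arrays. Tmem212 and 1700012B09Rik exceeded that limit at 22 months only (5.93 and 4.39), and Stoml3 at 17 months only (4.72). The size of their differences was therefore not measured.

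**Figure D4:**
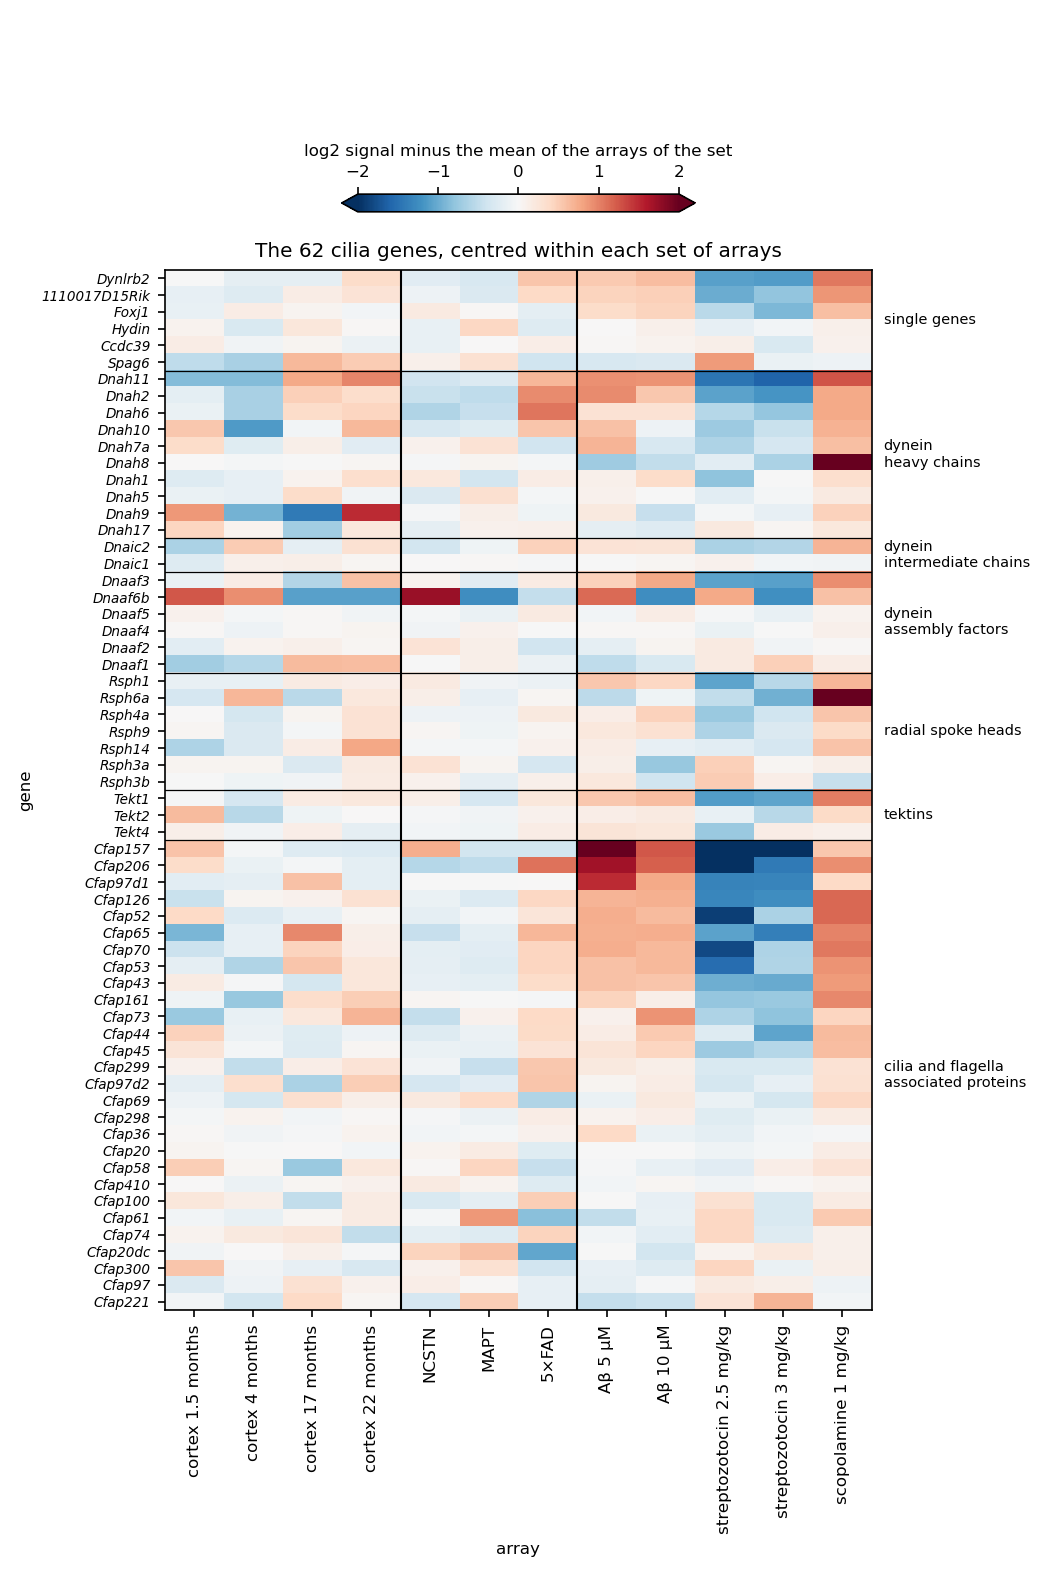
Log2 signal of the 62 cilia genes (rows, grouped by family and ordered by their streptozotocin difference) on the 12 arrays (columns), minus the mean of the arrays of the same set, with the colour scale ending at -2 and 2. Within the ICR set blue is most frequent on the 2 streptozotocin arrays, and 47 of the 62 genes have their lowest ICR value on one of them (37.7% of all genes).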

How the data were processed

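Each of the 12 Agilent arrays, hybridised in 1 colour, held RNA pooled from 3 animals of 1 model. The authors deposited 2 kinds of intensity. The first is the scanner output of each spot (processed signal, foreground and background medians, and flags), with no normalization between arrays. The second is a processed matrix on a linear scale, whose column medians were 6.86 (log2) for the cortex, NCSTN, and MAPT arrays, 7.06 for 5xFAD, and 7.30 for the ICR arrays. The methods describe a selection of probes 1.4-fold over local background and quantile normalization, but which arrays were normalized together is not given in the sources used here, and the matrix was used only as an alternative. The scanner tables give no slide or scan date. The number of arrays limits the precision.

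Outlier spots (110 to 234 of 43020 on an array) were dropped, and the log2 processed signals of a probe's remaining spots were averaged. All 39429 probes were quantile normalized over the 12 arrays with limma 3.58.1 in R 4.3.3. Accessions were matched without versions to the RefSeq gene table of GRCm38.p6, which named 27508 probes (69.8%). Probes well above background on at least 1 array were kept (a probe passed on an array where at least 50 percent of its spots were marked so), and the probes of a gene were averaged. A gene well above background on no array of a side has only a bound there, taken from the lowest signal well above background on each array.

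Called means at least 2-fold higher or lower, and shares of all genes are given as background. No p-value, SD, or test between models was computed, because each model has 1 array. The scripts were tested on simulated data, where 97% of 100 genes lowered by 2 on the log2 scale were called in the streptozotocin and Aβ contrast over 17952 genes. The simulated noise was set in advance and not estimated from these arrays. The figure therefore checks the code, and the reliability of the calls in the real data was not measured. The members and the gene lists were chosen with earlier results of these data known. The 7 genes that the rule lists by name and the 5 members with the widest range in each set were named by rule, and Ccdc40 among the former had no probe here. Other members were named as examples of their family after their values were seen. The alternatives were another scaling, normexp background correction (on foreground medians, as no mean signal was used here), other filters, the brightest probe of a gene, other references and thresholds, and the deposited matrix.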

Additional observations from a re-analysis of the deposited data

How the results depend on the processing

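With no replicates, a median counted as unchanged when it moved by less than 0.1 on the log2 scale and a count when it stayed within 1.5 times. Of the alternatives to the medians by array and to the streptozotocin and age contrasts, 175 left the value unchanged by this measure, 35 moved it, and 2 turned the sign of a median of at least 0.1 in size. These 2 came with the deposited matrix, where the median was -0.0172 on the 10 μM Aβ array and -0.0101 on the scopolamine array. The medians over all genes were then -0.15 and -0.23 on these arrays. The matrix also gave -0.0099 and -0.21 on the 2.5 and 3 mg/kg streptozotocin arrays (all genes 0.25 and 0.10), 0.36 on 5xFAD, -0.17 on NCSTN, -0.15 for streptozotocin minus Aβ (11 members at least 2-fold lower), and -0.0931 for streptozotocin minus the other 3 ICR arrays (11 members). Normexp background correction gave -0.24 and -0.20 on the streptozotocin arrays, 0.19 on the scopolamine array, -0.0434 at 4 months, 0.0537 at 22 months, -0.24 against Aβ (9 members), and -0.28 against the other 3 arrays (10 members). Keeping only probes above the median mean signal left 35 members and gave -0.31 with 3 mg/kg streptozotocin, 0.29 with scopolamine, -0.28 against Aβ (9 members), and -0.40 against the other 3 arrays (12 members). Scaling to the 75th percentile gave -0.19 on NCSTN, the brightest probe gave -0.47 with 2.5 mg/kg streptozotocin, and a 3-fold threshold left 14 members against the other 3 arrays. With 1 array left out at a time, the median ran from -0.52 to -0.26 with 2.5 mg/kg and from -0.56 to -0.32 with 3 mg/kg streptozotocin, from 0.41 to 0.62 with scopolamine, from 0.10 to 0.36 with 5 μM and from 0.0894 to 0.28 with 10 μM Aβ, and from -0.18 to -0.0030 on MAPT, and that of streptozotocin minus the other 3 arrays from -0.63 to -0.44. The causes were not tested. Medians closer to 0 also changed sign, at 1.5 months with the 75th percentile (0.0202) and without the 17-month or the 22-month array (up to 0.0486), and on NCSTN without 5xFAD (0.0030). Signal over background limited the cortex and the streptozotocin arrays, with 11 to 15 of the 62 members not well above background on each. No paired analysis was possible because the labels give 1 array per group.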

Other observations

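On the streptozotocin arrays the members were a small part of a wider set of lower genes. In the contrast with the other 3 ICR arrays, 380 of 17946 genes were at least 2-fold lower, did not overlap, and were well above background on the other 3 arrays. Of these, 22 were among the 62 members, 12 belonged to the list of other axonemal genes, 15 to the choroid plexus list, 4 to the ependyma list, and 3 to the meningeal list, and 324 were in no list. The lists are short, so a gene in no list may still be expressed in the choroid plexus or another of these tissues. The lowest were Wfdc2 (93.8-fold lower), Tex22 (83.6-fold), and Kcne2 (73.8-fold), named here after their values were seen, and Kcne2 is a potassium channel subunit of the choroid plexus.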
